A study of Mus musculus with 3 samples.

Results

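Complement was described here through 8 genes: C1qa, C1qb and C1qc, which encode the 3 chains of C1q, C3, Cfp, C3ar1, C5ar1 and C5ar2. They were chosen by name, as components and receptors of complement that the tables list, and are 8 of the 14221 genes listed in any of the 3 tables. All 8 were listed in each table. Values were read in every library, in 4 cell classes and in 6 microglial states.

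Complement is a cascade of blood and tissue proteins that tags particles and cells for uptake. C1q binds its target and starts the classical pathway, the pathways meet at C3, and the cleavage products C3a and C5a signal through receptors on myeloid cells. In the brain, microglia are the main source of C1q, and C1q and C3 are known for tagging synapses that microglia remove. Properdin, the product of Cfp, stabilises the C3 convertase of the alternative pathway and is made chiefly by myeloid cells of the blood. The C3a receptor is encoded by C3ar1 and the main C5a receptor by C5ar1, both coupled to G proteins, while C5ar2 encodes a second C5a receptor that does not couple to them.

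The cells carried CD11b and CD45, came from the brain of adult mice and were sorted after warm enzymatic digestion and density centrifugation, and were profiled with a droplet kit that counts the 3' ends of transcripts. The groups were 2 WT libraries (WT 1 and WT 2) and 1 library from a MHC class II-deficient mouse, in which CD4 T cells are nearly absent (the deficient library). Each library is 1 mouse by the study's design text, and the allele behind the deficiency, the strain, the sex and any age beyond adult were not given in the sources used here. Class II itself is lost on every cell type of such a mouse, so its loss on myeloid cells and the loss of CD4 T cells cannot be told apart. With 1 deficient library, neither can be told apart from differences of that mouse, its preparation or its library. P-values measure only the spread between these samples.

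The tables hold 16230216, 17293844 and 6616662 unique molecular identifiers (UMIs, counted transcripts) in 4589, 4815 and 2278 barcodes of WT 1, WT 2 and the deficient library. Cells were classed by the share of their UMIs in marker lists that hold none of the 8 genes, and each class is named for its markers with the ending -like. Microglia-like cells numbered 3917, 4412 and 2199, border macrophage-like cells 36, 35 and 12, monocyte-like cells 45, 36 and 20, and neutrophil-like cells 275, 134 and 18, in that order of libraries. The classes carried their defining markers: P2ry12 stood at 4175, 4763 and 4111 CPM (UMIs of a gene per 1000000 UMIs of the summed cells) in microglia-like cells, Mrc1 at 1285, 1087 and 678 CPM in border macrophage-like cells, Ly6c2 at 1979, 1132 and 764 CPM in monocyte-like cells and S100a8 at 207666, 224365 and 226068 CPM in neutrophil-like cells. These genes belong to the lists that set the classes, so their high levels follow from the classing and are no separate check of it. In monocyte-like cells Treml4, a marker of non-classical monocytes, stood at 23.9, 48.3 and 292 CPM, highest in the deficient library, where Ly6c2 was lowest. Neutrophil-like cells made up 6.34%, 2.87% and 0.798% of the retained cells and immediate early microglia 18.0%, 10.0% and 7.96% of the microglia-like cells. Of the sex-linked genes, Ddx3y of the Y chromosome gave 1507, 1435 and 427 UMIs. Xist gave 5 UMIs in WT 1 and was not listed for WT 2 and the deficient library. Between 13 and 28 cell barcodes were shared by any pair of libraries. A doublet caller marked 0, 1 and 28 cells, no cell was removed for it, and doublets can remain.

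All 8 genes lie on the minus strand (build mm10, GENCODE mouse release 21). C1qa (chr4:136895917-136898803), C1qc (chr4:136889804-136893065) and C1qb (chr4:136880129-136886187) form a cluster on chromosome 4 with 2851 bases between C1qa and C1qc and 3616 bases between C1qc and C1qb. C5ar1 (chr7:16246743-16259540) and C5ar2 (chr7:16234585-16244154) are neighbours on chromosome 7, 2588 bases apart. C3 lies at chr17:57203970-57228136, C3ar1 at chr6:122847138-122856161 and Cfp at chrX:20925454-20931555. A microRNA gene, Mir6978, lies within C3 and a small nuclear RNA gene, Gm26473, within C5ar2, both on the same strand, and UMIs were taken as the tables assign them.

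Promoter sequences are shown for the members with an entry whose levels set the classes or states apart in the comparisons that follow, with or without a motif match: C1qb and C1qc, high in microglia and border macrophages, C3 and Cfp, high in neutrophils and monocytes, and C3ar1 and C5ar1, raised in Egr2-Ccl2 and immediate early microglia. Each is the part of the 250 bases before the transcription start (RefSeq, build GRCm38.p6) that no annotated exon covers, written 5′ to 3′ on the minus strand, with a motif match in capitals. The windows are chr4:136886201-136886450 for C1qb, chr4:136893066-136893164 for C1qc, chr17:57228137-57228386 for C3, chrX:20931556-20931805 for Cfp, chr6:122856162-122856407 for C3ar1 and chr7:16259541-16259588 for C5ar1.
C1qb: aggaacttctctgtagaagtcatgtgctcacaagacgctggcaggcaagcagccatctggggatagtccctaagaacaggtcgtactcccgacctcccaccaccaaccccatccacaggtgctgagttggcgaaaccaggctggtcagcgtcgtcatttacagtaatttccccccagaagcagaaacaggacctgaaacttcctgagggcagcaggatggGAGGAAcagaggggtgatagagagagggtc
C1qc: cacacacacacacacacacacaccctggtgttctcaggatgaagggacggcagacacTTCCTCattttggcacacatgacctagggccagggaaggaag
C3: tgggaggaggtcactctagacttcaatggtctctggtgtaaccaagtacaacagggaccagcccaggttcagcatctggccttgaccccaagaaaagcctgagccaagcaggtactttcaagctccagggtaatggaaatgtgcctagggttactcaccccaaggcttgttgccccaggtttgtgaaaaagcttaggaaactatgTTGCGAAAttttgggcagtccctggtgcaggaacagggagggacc
Cfp: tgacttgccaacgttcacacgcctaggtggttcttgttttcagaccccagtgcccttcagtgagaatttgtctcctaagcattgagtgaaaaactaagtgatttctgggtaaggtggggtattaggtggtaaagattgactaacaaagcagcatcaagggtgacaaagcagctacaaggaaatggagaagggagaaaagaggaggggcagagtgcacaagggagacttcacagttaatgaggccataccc
C3ar1: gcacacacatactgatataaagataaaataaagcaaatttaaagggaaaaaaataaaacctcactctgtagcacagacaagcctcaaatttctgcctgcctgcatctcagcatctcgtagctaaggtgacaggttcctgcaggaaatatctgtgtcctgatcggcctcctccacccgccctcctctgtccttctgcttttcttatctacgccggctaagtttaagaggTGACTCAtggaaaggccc
C5ar1: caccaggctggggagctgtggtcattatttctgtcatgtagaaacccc
The motifs searched, on both strands, were GAGGAA (the core bound by PU.1, a factor that macrophages need), TTGCNNAA (a C/EBP site, of factors known from granulocytes and monocytes) and TGANTCA (an AP-1 site, of Fos and Jun proteins), and matches of different motifs did not overlap. The motifs were chosen with the members' levels known. GAGGAA lay 30 to 25 bases before the start of C1qb, and its reverse complement TTCCTC lay 193 to 188 bases before that of C1qc. TTGCGAAA lay 45 to 38 bases before the start of C3, and TGACTCA lay 22 to 16 bases before that of C3ar1. None of the 3 motifs had a match in the 250 bases of Cfp or C5ar1. C5ar2, which is not shown, has 2 entries, with GAGGAA 26 to 21 bases before 1 start and with TTAAGCAA 210 to 203 and TTGCCAAA 166 to 159 bases before the other. Of 32851 promoters of the same 250 bases, 23.3% held GAGGAA, 9.56% TTGCNNAA and 6.75% TGANTCA. The promoter table held an entry for 7 of the 8 members, and these letters are a description of the windows, not of binding.

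C1q transcripts were abundant in microglia-like cells and were held almost wholly by them. C1qa stood at 10020.3 (WT 1), 10759.7 (WT 2) and 12680.1 CPM (deficient library) in microglia-like cells. C1qb stood at 8708, 9472 and 10768 CPM and C1qc at 7439, 8062 and 9005 CPM in the same order. All 3 chains were lowest in WT 1 and highest in the deficient library. Microglia-like cells held 97.4%, 98.3% and 99.4% of the C1qa UMIs of the 3 libraries, and a C1qa UMI was found in 99.8, 100 and 100% of them.

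C1q UMIs together made up 2.62%, 2.83% and 3.25% of all microglial UMIs in WT 1, WT 2 and the deficient library, and the median microglia-like cell gave 2.63, 2.85 and 3.21%. The split between the chains hardly moved. C1qa gave 38.3, 38.0 and 39.1% of C1q UMIs, C1qb 33.3, 33.5 and 33.2% and C1qc 28.4, 28.5 and 27.7%. The C1q protein holds its 3 chains in equal numbers. Reads from the 3' end count molecules rather than length, and how well each transcript is captured was not measured.

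Border macrophages, which sit in the meninges and around vessels, carried C1q at somewhat lower levels. C1qa stood at 5639, 6120.5 and 7023 CPM in border macrophage-like cells (WT 1, WT 2, then the deficient library), C1qb at 5257, 6274 and 7155 CPM and C1qc at 4157, 4803 and 4573 CPM. Each chain was below its microglial level in each library. In the fit of class sums (edgeR, library as a term), 1312 of 5682 genes differed between border macrophage-like and microglia-like cells, 23.1% of those tested, and the C1q chains were not among them. The log2 differences, border minus microglia, were -0.66 (SE 0.38, adjusted p = 0.217) for C1qa, -0.46 (adjusted p = 0.432) for C1qb and -0.68 (adjusted p = 0.194) for C1qc. With every cell thinned to 1000 UMIs all 3 chains passed as lower, at -0.93, -0.95 and -0.98, where 42.4% of 1080 genes passed. With library totals as the only scaling, which put the median gene at -0.32, C1qa (-0.85) and C1qc (-0.87) passed, where 29.7% of genes did. Without the deficient library C1qa alone passed (-0.55, adjusted p = 0.0498), where 21.1% of 7160 genes did.

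Monocytes and neutrophils stood far lower. C1qa was at 366, 377 and 142 CPM in neutrophil-like and 176, 346 and 111 CPM in monocyte-like cells (WT 1, WT 2, then the deficient library). Both were below the border and microglial values in every library, and between the pair, in CPM, the counting intervals overlapped in WT 2 (333 to 426 against 277 to 428 CPM) and in the deficient library, where neutrophil-like cells gave 7 and monocyte-like cells 8 C1qa UMIs. On the TMM scale of the fit (edgeR's scaling by the bulk of genes) C1qa stood higher in neutrophil-like cells, at 781, 848 and 179 against 159, 330 and 91.1 CPM in monocyte-like cells. In WT 2, 1 monocyte-like cell gave 36 of the 86 C1qa, 41 of the 89 C1qb and 37 of the 73 C1qc UMIs, and without it C1qa stood at 211 CPM there, a value taken after the data were seen. Against microglia-like cells the log2 difference of C1qa was -5.60 (SE 0.47, adjusted p = 2.19e-16) in monocyte-like and -3.90 (SE 0.43, adjusted p = 4.3e-12) in neutrophil-like cells, and that of C1qb and C1qc lay between -5.55 and -3.80.

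C1q UMIs in these blood cells were also set against microglial marker UMIs. For each UMI of the 12 microglial markers, microglia-like cells gave 0.704, 0.723 and 0.865 C1q UMIs in WT 1, WT 2 and the deficient library. Neutrophil-like cells gave 0.692, 0.823 and 0.737, from 1223, 687 and 14 C1q UMIs, and monocyte-like cells 0.415, 0.699 and 0.378, from 146, 248 and 28. The monocyte ratio of WT 2 was 0.545 without the cell named above. The neutrophil ratios lay close to the microglial ones and the monocyte ratios below them, whereas border macrophage-like cells gave 3.75, 3.52 and 7.94. By definition border macrophage-like, monocyte-like and neutrophil-like cells each held under 1% microglial marker UMIs. A C1qa UMI was found in 61.1, 61.9 and 22.2% of neutrophil-like cells, and whether these cells express it was not tested.

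C3, the component at which the pathways meet, was a transcript of neutrophils and monocytes in this sort. It stood at 144, 205 and 40.5 CPM in neutrophil-like cells (WT 1, WT 2, then the deficient library), from 179, 141 and 2 UMIs. Monocyte-like cells were at 194, 125 and 125 CPM, from 65, 31 and 9 UMIs. In microglia-like cells C3 gave 8 UMIs in WT 1, 5 in WT 2 and 0 in the deficient library, which is 0.570 and 0.315 CPM and, for a count of 0, up to 0.574 CPM. C3 was thus above its microglial level in both blood cell classes of all 3 libraries. In CPM neutrophil-like and monocyte-like cells did not differ in one direction across the libraries. On the TMM scale neutrophil-like cells stood higher in WT 1 and WT 2, at 308 and 461 against 175 and 119 CPM. In the deficient library they stood at 51.0 against 102 CPM, from 2 and 9 UMIs.

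The log2 difference from microglia-like cells was 9.99 (SE 0.38, adjusted p = 2.17e-33) in neutrophil-like cells and 8.80 (SE 0.42, adjusted p = 5.53e-28) in monocyte-like cells. In border macrophage-like cells C3 gave 2, 0 and 2 UMIs, and its call there (log2 difference 5.07, adjusted p = 0.00287) rests on those 4 UMIs. It was lost without the deficient library (adjusted p = 0.0801) and with marker thresholds halved (adjusted p = 0.0516). A C3 UMI was found in 33.1, 41.0 and 5.56% of neutrophil-like and 64.4, 44.4 and 35% of monocyte-like cells, against 0.204, 0.113 and 0% of microglia-like cells. Median depths were 2924, 3036 and 1942 UMIs in neutrophil-like, 7141, 7530 and 2408 in monocyte-like and 3378, 3326 and 2826 in microglia-like cells. At 1000 UMIs per cell the shares were 11, 13.9 and 0%, 11.1, 2.78 and 5.26% and 0.0777, 0.0459 and 0%, in the same order of classes.

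Properdin followed the same cells. Cfp stood at 224, 189 and 97.3 CPM in monocyte-like and 122, 99.0 and 203 CPM in neutrophil-like cells (WT 1, WT 2, then the deficient library), and at 46.1 and 76.7 CPM in border macrophage-like cells of WT, with 0 UMIs in the 12 such cells of the deficient library. In microglia-like cells it stood at 1.71, 3.91 and 0.779 CPM, from 24, 62 and 5 UMIs. In CPM, monocyte-like cells were highest in both WT libraries and neutrophil-like cells in the deficient library, where the intervals of the pair overlapped. The order in WT turned on the TMM scale, with 260 and 223 CPM in neutrophil-like against 202 and 180 CPM in monocyte-like cells. The log2 difference from microglia-like cells was 6.91 (SE 0.30, adjusted p = 1.61e-30) in neutrophil-like, 6.46 (adjusted p = 2.13e-27) in monocyte-like and 4.64 (adjusted p = 3.22e-09) in border macrophage-like cells. A Cfp UMI was found in 37.5, 38.8 and 44.4% of neutrophil-like and 0.613, 0.589 and 0.227% of microglia-like cells.

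C3 and Cfp UMIs came from few cells. Of 274, 182 and 13 C3 UMIs in WT 1, WT 2 and the deficient library, neutrophil-like cells held 65.3, 77.5 and 15.4%, monocyte-like cells 23.7, 17.0 and 69.2% and microglia-like cells 2.92, 2.75 and 0%. Of 282, 210 and 23 Cfp UMIs, neutrophil-like cells held 53.5, 32.4 and 43.5%, monocyte-like cells 26.6, 22.4 and 30.4% and microglia-like cells 8.51, 29.5 and 21.7%. Over all retained cells C3 came to 17.0, 10.6 and 1.97 CPM and Cfp to 17.5, 12.2 and 3.48 CPM, in the order of the neutrophil shares.

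**Figure D1:**
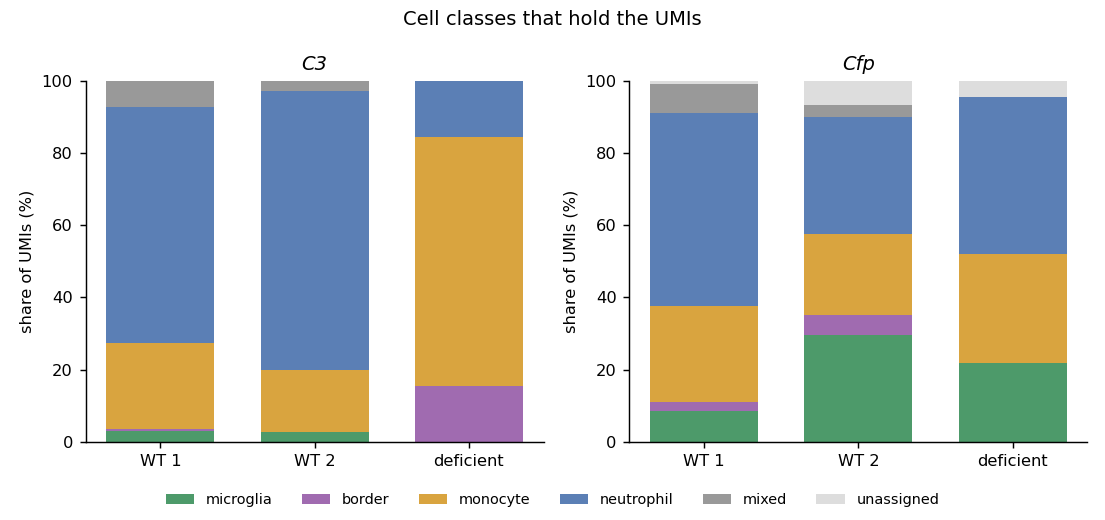
Stacked bars give the share (percent) of all C3 UMIs (left) and Cfp UMIs (right) of each library that each cell class holds, for WT 1, WT 2 and the deficient library. Neutrophil-like cells hold 65.3% and 77.5% of C3 UMIs in WT and 15.4% in the deficient library, where the bar rests on 13 UMIs.

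Single cells set part of the microglial Cfp level. In WT 2, 27 of the 62 microglial Cfp UMIs came from 1 cell of 21064 UMIs, which also gave 183 Cd74, 28 C5ar1 and 16 C3ar1 UMIs, and 11 came from another of 22408 UMIs with 516 Cd74 UMIs. Cd74 is the invariant chain of MHC class II, carried by antigen-presenting cells. S100a8, a neutrophil transcript, stood at 439, 247 and 20.7 CPM in microglia-like cells (WT 1, WT 2, then the deficient library), and the part of neutrophil RNA in the microglial C3 and Cfp levels was not tested.

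The receptors split between the classes. C3ar1, the C3a receptor, stood at 260.4 (WT 1), 268 (WT 2) and 217 CPM (deficient library) in microglia-like cells. Border macrophage-like cells were at 632, 627 and 766 CPM, above the microglial value in each library, and the log2 difference was 1.62 (SE 0.24, adjusted p = 1.4e-07). In neutrophil-like cells C3ar1 gave 13, 6 and 0 UMIs and in monocyte-like cells 2, 2 and 0, at most 10.5 CPM in WT, and its log2 difference from microglia-like cells was -3.36 (SE 0.37, adjusted p = 4.81e-12) and -5.21 (SE 0.49, adjusted p = 2.81e-14). The order was thus border macrophages, microglia and then both blood classes, which could not be told apart at 2 to 13 UMIs in WT.

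C5ar1, the main C5a receptor, was present in all these classes. It stood at 197, 227 and 265 CPM in microglia-like cells, 942, 972 and 831 CPM in border macrophage-like cells, 351, 322 and 506 CPM in neutrophil-like cells and 23.9, 80.5 and 97.3 CPM in monocyte-like cells (WT 1, WT 2, then the deficient library). The order border, neutrophil, microglia, monocyte held in each library. The log2 difference from microglia-like cells was 2.24 (SE 0.29, adjusted p = 3.55e-09) in border macrophage-like, 1.96 (SE 0.29, adjusted p = 2.56e-08) in neutrophil-like and -1.85 (SE 0.37, adjusted p = 2.47e-05) in monocyte-like cells. The size in neutrophils depends on the scaling, and S100a8 and S100a9 stood at 207666 and 140058 CPM there in WT 1. With library totals only, where 85.6% of genes passed and the median gene stood at -1.52, C5ar1 was 0.66 (adjusted p = 0.0106). C5ar1 UMIs were found in 69.5, 70.1 and 83.3% of neutrophil-like and 39.5, 43.4 and 44.0% of microglia-like cells.

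C5ar2 was highest in microglia-like cells in each library in CPM, and on the TMM scale in WT 1 and the deficient library but not in WT 2 (52.4 CPM in neutrophil-like against 48.7 CPM in microglia-like cells). It stood at 64.6, 60.5 and 72.9 CPM in microglia-like and 46.1, 38.4 and 21.9 CPM in border macrophage-like cells, whose intervals overlapped in each library (18.5 to 95 CPM against 60.5 to 69.0 CPM in WT 1). Neutrophil-like cells were at 20.2 and 23.3 CPM in WT with 0 UMIs in the 18 cells of the deficient library, and monocyte-like cells gave 1 UMI in each WT library. The log2 difference from microglia-like cells was -0.25 (adjusted p = 0.501) in neutrophil-like cells under TMM scaling, -0.70 (adjusted p = 0.0329) under RLE, where 70.1% of genes passed, and -1.69 under library totals, so its call there depends on the scaling. In monocyte-like cells the difference of -4.22 (adjusted p = 1.52e-07) rests on 2 UMIs. In border macrophage-like cells it was -0.48 (adjusted p = 0.472).

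The receptors also separated by their ratio to microglial marker UMIs. For every 1000 microglial marker UMIs, C3ar1 gave 7.35 and 7.19 UMIs in neutrophil-like cells of WT 1 and WT 2, close to the 7.0 and 6.84 of microglia-like cells. The neutrophil values rest on 13 and 6 C3ar1 UMIs, and the deficient library gave 0 beside 19 marker UMIs. Whether neutrophils express C3ar1 was not tested. In the same WT classes C5ar1 gave 246 and 265 against 5.29 and 5.80, and C5ar2 14.1 and 19.2 against 1.74 and 1.54. Both C5a receptors thus stood above their microglial ratio in neutrophil-like cells of WT.

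Across the classes, 8 of 8 members passed between monocyte-like and microglia-like cells, where 53.8% of 5682 genes did, and 7 of 8 between neutrophil-like and microglia-like cells, where 64.1% did. Between border macrophage-like and microglia-like cells 4 of 8 passed, all of them higher, where 23.1% did, and 1 of the 4 was C3 with its 4 UMIs. The medians of the 8 log2 differences were -4.71, -1.80 and 0.58 in monocyte-like, neutrophil-like and border macrophage-like cells, beside -0.05, -0.09 and -0.10 over all genes tested.

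**Figure D2:**
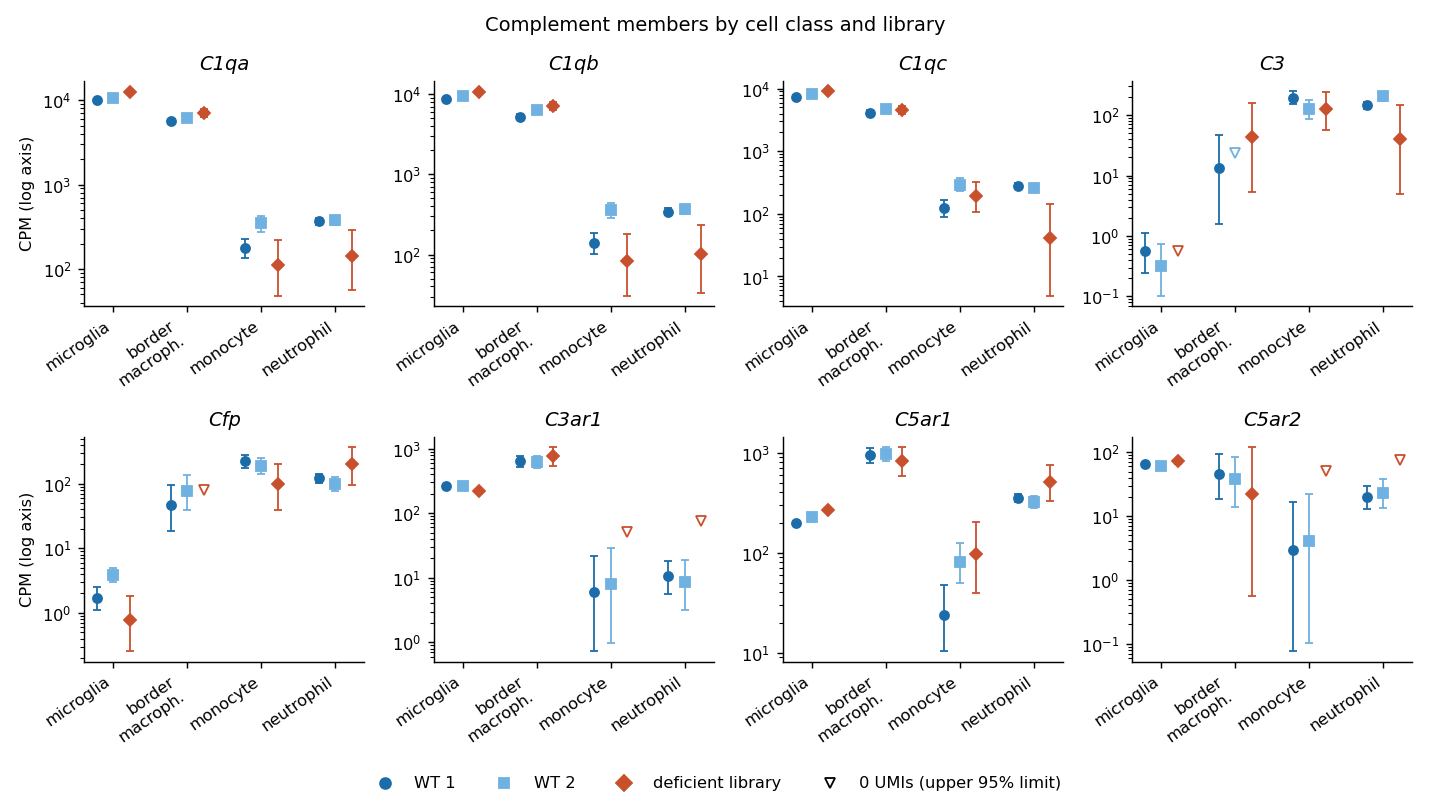
Each panel gives 1 gene, with CPM on a log axis against cell class. Points are libraries (circle WT 1, square WT 2, diamond the deficient library), bars are exact Poisson 95% intervals that cover counting error only, and open triangles mark the upper limit where no UMI was counted. The C1q chains fall from microglia-like to monocyte-like and neutrophil-like cells, C3 and Cfp rise, and C5ar1 is highest in border macrophage-like cells.

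Within microglia, the 2 signalling receptors stood higher in several states, and C1q stood lower, as a share of UMIs, in Egr2-Ccl2 and immediate early cells. States were read from marker UMIs: immediate early genes such as Fos and Egr1, an Lpl-Cst7 programme shared with disease-associated and developmental microglia, an Egr2-Ccl2 programme with chemokine genes, interferon-stimulated genes and heat shock genes, with cells in none called homeostatic. The states held 2963, 3721 and 1886 homeostatic, 705, 441 and 175 immediate early, 94, 89 and 61 heat shock, 62, 63 and 46 interferon, 44, 61 and 18 Lpl-Cst7 and 46, 27 and 12 Egr2-Ccl2 cells. A cell over the thresholds of several states was placed in the first of proliferation, interferon, Lpl-Cst7, Egr2-Ccl2, immediate early and heat shock. Egr2-Ccl2 cells could thus also pass the immediate early threshold. C3 and Cfp had too few UMIs in microglia to be tested by state.

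C3ar1 stood at 206 (WT 1), 207 (WT 2) and 177 CPM (deficient library) in homeostatic cells. It was at 572, 555 and 934 CPM in Egr2-Ccl2, 538, 691 and 499.6 CPM in Lpl-Cst7, 395, 577 and 488 CPM in immediate early and 342, 346 and 264 CPM in interferon cells. Each of these 4 states lay above the homeostatic cells in each library. In interferon cells of WT 2, 16 of the 98 C3ar1 UMIs came from the cell of 21064 UMIs described above. The log2 differences were 1.78 (SE 0.18, adjusted p = 6.43e-09) for Egr2-Ccl2, 1.67 (SE 0.16, adjusted p = 6.66e-09) for Lpl-Cst7, 1.46 (SE 0.14, adjusted p = 8.81e-10) for immediate early and 0.77 (SE 0.17, adjusted p = 0.00262) for interferon cells, and -0.11 (adjusted p = 0.982) for heat shock cells. The interferon call was lost without WT 2 (adjusted p = 0.109), with cells thinned to 1000 UMIs (adjusted p = 0.0803) and with marker thresholds doubled (adjusted p = 0.152).

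C5ar1 moved in the same states. It stood at 169.7, 195 and 247 CPM in homeostatic, 419, 698 and 828 CPM in Egr2-Ccl2, 258, 393 and 377 CPM in immediate early, 389.6, 313 and 262 CPM in Lpl-Cst7 and 199.99, 304 and 379 CPM in interferon cells (WT 1, WT 2, then the deficient library). Egr2-Ccl2 cells were highest in every library. In interferon cells of WT 2, 28 of the 86 C5ar1 UMIs came from the cell of 21064 UMIs described above. In Lpl-Cst7 cells the excess over homeostatic cells was smallest in the deficient library, where the intervals overlapped. The log2 differences were 1.70 (SE 0.18, adjusted p = 1.75e-08) for Egr2-Ccl2, 0.92 (SE 0.13, adjusted p = 2.99e-06) for immediate early, 0.87 (SE 0.17, adjusted p = 0.000622) for Lpl-Cst7 and 0.57 (SE 0.17, adjusted p = 0.0401) for interferon cells. The Lpl-Cst7 call was lost without WT 1 (adjusted p = 0.1), with cells thinned to 1000 UMIs (adjusted p = 0.137) and without a library term (adjusted p = 0.0755). The interferon call was lost without WT 2 (adjusted p = 0.419), without the deficient library (0.12), without cells over 10000 UMIs (0.177), with library totals only (0.0732), with marker thresholds doubled (0.236) and without a library term (0.35), and its log2 difference was 0.03 (adjusted p = 0.971) with cells thinned.

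C5ar2 was not called in any state. It stood at 64.4, 63.9 and 75 CPM in homeostatic and 65.0, 48.4 and 61.4 CPM in immediate early cells. Its log2 difference was -0.04 (SE 0.12, adjusted p = 0.831) in immediate early cells, and in Egr2-Ccl2 cells 0.04 (SE 0.30), from 19, 5 and 1 UMIs. That value depends on the boundary of the state: with marker thresholds halved C5ar2 was called higher in Egr2-Ccl2 cells at 0.66 (adjusted p = 0.0386), where 14.8% of 6584 genes passed. With thresholds doubled it was called lower in Lpl-Cst7 cells at -1.85 (adjusted p = 0.0334), where 15.0% of 3714 genes passed.

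The C1q chains were lower in Egr2-Ccl2 and immediate early cells, by less than C3ar1 and C5ar1 were higher there. C1qa stood at 10715, 11372 and 13009 CPM in homeostatic, 7869.8, 7548 and 8617 CPM in Egr2-Ccl2 and 7937, 7562 and 10233 CPM in immediate early cells. Both states lay below the homeostatic cells of the same library in each case. For each microglial marker UMI, homeostatic cells gave 0.700, 0.719 and 0.862 C1q UMIs in WT 1, WT 2 and the deficient library. Immediate early cells gave 0.697, 0.724 and 0.836, and Egr2-Ccl2 cells 0.723, 0.752 and 1.01. By this ratio C1q was not lower in Egr2-Ccl2 cells and hardly moved in immediate early cells. Whether C1q fell apart from the microglial markers was not tested. In Egr2-Ccl2 cells the log2 difference was -0.44 (SE 0.10, adjusted p = 0.00193) for C1qa, -0.37 (adjusted p = 0.00758) for C1qb and -0.41 (adjusted p = 0.00309) for C1qc. In immediate early cells C1qa passed at -0.29 (SE 0.10, adjusted p = 0.022), while C1qb at -0.21 (adjusted p = 0.0835) and C1qc at -0.23 (adjusted p = 0.0578) did not. All 3 passed there with library totals only, which put the median gene at -0.23, at -0.47, -0.39 and -0.41, where 50.7% of genes passed. With 2 libraries in place of 3, the immediate early call of C1qa was lost without either WT library (adjusted p = 0.265 and 0.263), that of C1qb in Egr2-Ccl2 cells likewise (0.121 and 0.137) and that of C1qc without WT 1 (0.0905). The Egr2-Ccl2 calls of C1qa, C1qb and C1qc were all lost with marker thresholds doubled (adjusted p = 0.134, 0.0856 and 0.0588) and without a library term (0.104, 0.202 and 0.0921). The immediate early call of C1qa was also lost with thresholds halved (0.184), with no count filter (0.183) and without a library term (0.302). C1qb and C1qc passed in immediate early cells with limma voom, with thresholds doubled and without the deficient library, where 38.9%, 38.0% and 30.9% of genes passed, and C1qc with cells thinned, where 29.0% did. In Lpl-Cst7 cells the chains stood at -0.16, 0.02 and -0.07, in interferon cells at -0.07, -0.07 and -0.13, and none passed. With library totals only, C1qa was called lower in Lpl-Cst7 cells (-0.26, adjusted p = 0.0293), where 16.1% of genes passed.

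In all, of 6 members tested in each state, 5 passed in Egr2-Ccl2 cells (2 higher, 3 lower), where 10.8% of 5370 genes did, and 3 in immediate early cells, where 31.0% did. In Lpl-Cst7 cells 2 passed, where 14.4% of genes did, in interferon cells 2, where 7.24% did, and in heat shock cells 0, where 0.857% did. At an unadjusted p under 0.05 no member passed in heat shock cells either, where limma voom also called 0.

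**Figure D3:**
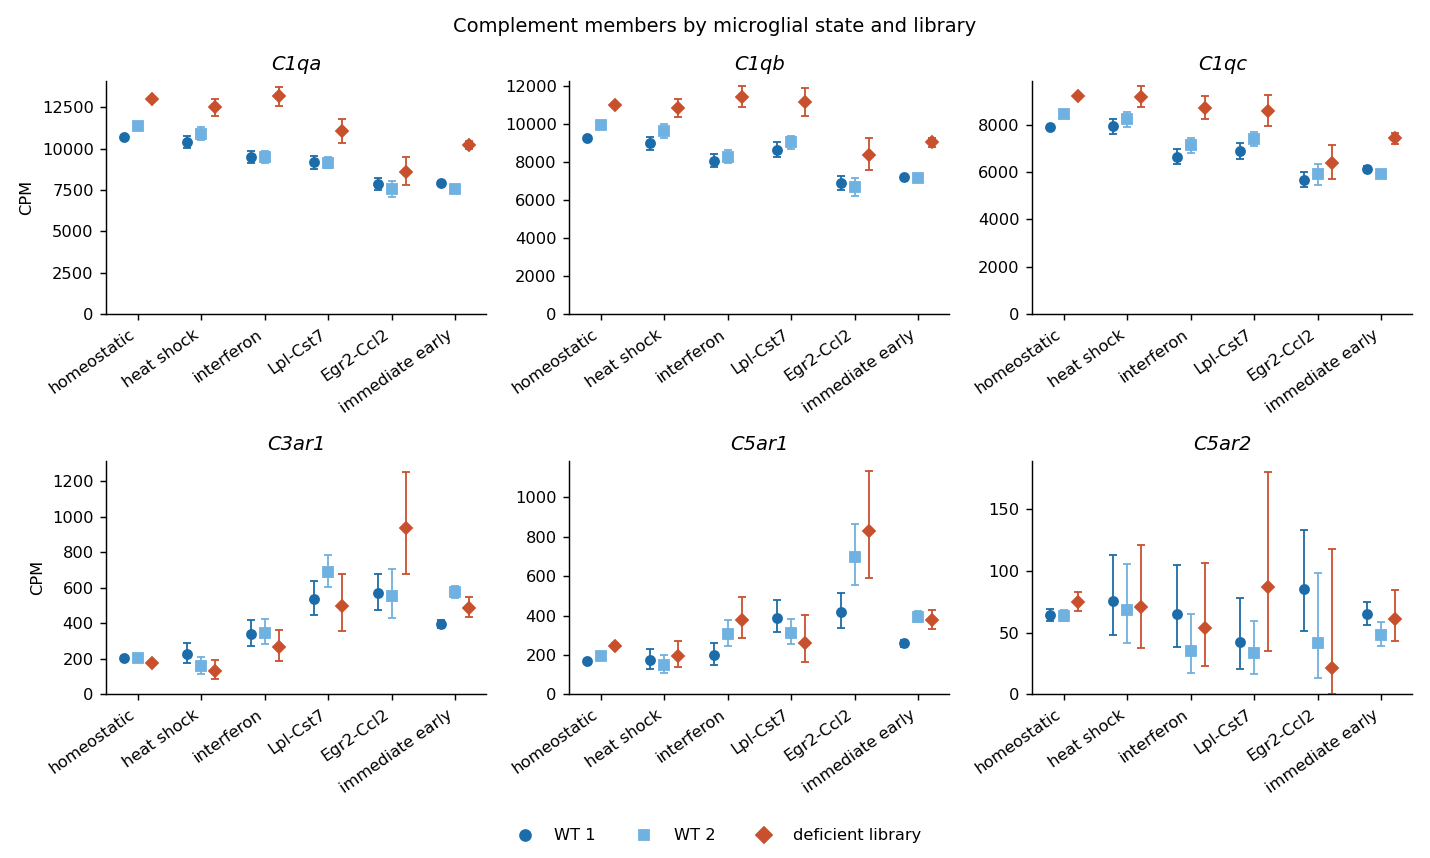
Each panel gives 1 gene, with CPM on a linear axis from 0 against microglial state. Points are libraries (circle WT 1, square WT 2, diamond the deficient library) and bars exact Poisson 95% intervals. C3ar1 and C5ar1 rise in Egr2-Ccl2, Lpl-Cst7 and immediate early cells, and the C1q chains fall in Egr2-Ccl2 and immediate early cells.

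The relation with immediate early genes was also read without a class boundary, over homeostatic and immediate early cells put in 6 bins by the share of their UMIs in immediate early genes. C3ar1 stood at 189, 213 and 165 CPM in cells under 0.25% in WT 1, WT 2 and the deficient library, 215, 209 and 279 CPM between 1% and 2%, 307, 439 and 342 CPM between 2% and 4%, and 454, 663 and 672 CPM above 4%. It stayed near its lowest level up to 2% in WT and rose above that in all 3 libraries. C5ar1 went from 167, 207 and 241 CPM in the first bin to 178, 180.0 and 240.4 CPM between 1% and 2% and 297, 444 and 451 CPM above 4%. C1qa went from 11040, 11729 and 13160.2 to 7023, 6447 and 9721 CPM between the same outer bins, a fall in each library. C5ar2 stood at 82.7, 65.8 and 73.0 CPM in the first and 57.4, 52.6 and 48.8 CPM in the last bin, and the intervals of these overlapped except in WT 1. The outer bins held 655, 1352 and 1305 and 394, 263 and 76 cells.

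**Figure D4:**
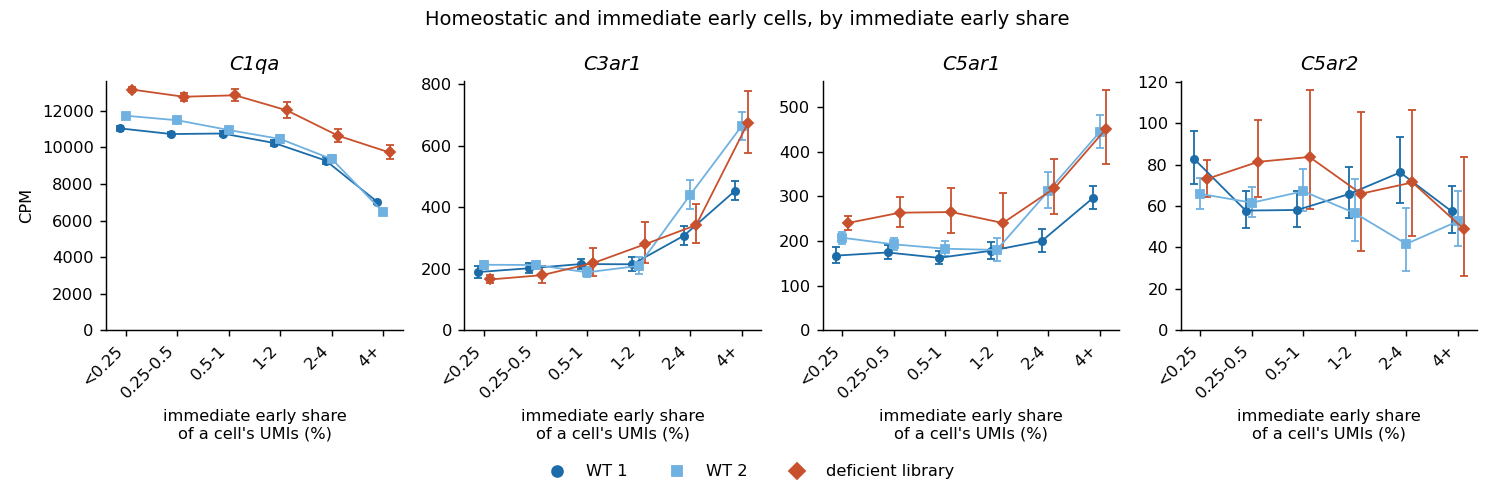
CPM (linear axis from 0) of C1qa, C3ar1, C5ar1 and C5ar2 in homeostatic and immediate early microglia-like cells, binned by the share of a cell's UMIs in immediate early genes (percent). Lines join the bins of 1 library (circle WT 1, square WT 2, diamond the deficient library), with exact Poisson 95% intervals. C3ar1 and C5ar1 climb in the last 2 bins while C1qa declines.

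From cell to cell, at 1000 UMIs per microglia-like cell, the C1q chains varied together weakly. Pearson's r between C1qa and C1qb was 0.233, 0.290 and 0.257 over 3861, 4354 and 2156 cells, that between C3ar1 and C5ar1 was 0.0801, 0.0903 and 0.145, and that between C1qa and C3ar1 was -0.0515, -0.0889 and -0.0809. The cells of a library share their library and depth, and values this low in sparse counts are given as a description only.

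The genes most like each member were sought over 28 class and state sums of the 3 libraries among 9479 genes, by Pearson's r of log2(CPM + 1). The gene most like each C1q chain was another chain, and r between the chains lay between 0.987 and 0.999. Abca1, a cholesterol exporter, was the gene outside the family closest to each (r = 0.988, 0.992 and 0.981). For C1qa and C1qb it ranked above C1qc. For C3 they were Gpr141 (r = 0.911), Prdx5 and Gda, and for Cfp Pira2 (r = 0.914), Plp2 and Adgre5. For C3ar1 they were Gas6 (r = 0.956), Pmp22 and Lacc1, for C5ar2 Pmepa1 (r = 0.930), Slco2b1 and Hvcn1. C5ar1 had no close match, with Klf7 at r = 0.806, then Ccl12, a chemokine gene of the Egr2-Ccl2 list, and Ddit3. The sums share libraries and their depth differs, so no p is given.

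Between the deficient library and WT, no member changed in microglia-like cells past the threshold. Of 11886 genes tested, 972 passed (edgeR, 8.18%), and 0 of the 7 members tested, with a median log2 difference of 0.23 beside -0.0019 over all genes. At an unadjusted p under 0.05, 4 of the 7 passed (C3ar1, C5ar1, C5ar2 and Cfp), as did 19.7% of all genes tested, and DESeq2, which gave no adjusted p for Cfp, and limma voom called none. The fit takes its spread from the WT pair alone and the lone deficient library is assumed to vary like WT.

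The C1q chains stood higher in the deficient library than in either WT library by 0.30 (SE 0.15, adjusted p = 0.324) for C1qa, 0.25 (SE 0.15, adjusted p = 0.401) for C1qb and 0.22 (SE 0.15, adjusted p = 0.45) for C1qc on the log2 scale. WT 2 was also above WT 1 for each chain, so the WT pair already differed in the same direction: C1qa came to a log2 ratio of 0.24 against WT 2 alone and 0.36 against WT 1 alone. Median depth was 3378, 3326 and 2826 UMIs in WT 1, WT 2 and the deficient library. With all cells at 1000 UMIs, where 7.19% of 10664 genes passed, C1qa was called higher at 0.29 (SE 0.09, adjusted p = 0.0202) and C1qb and C1qc were not. The deficient library also held the smallest share of immediate early cells, in which C1qa stood below its homeostatic level. Within homeostatic cells the log2 difference of C1qa was 0.25 (adjusted p = 0.206).

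The receptors differed in direction. C3ar1 was lower in the deficient library than in both WT libraries, by -0.28 (SE 0.10, adjusted p = 0.111), and was called at 1000 UMIs per cell (-0.37 (SE 0.13, adjusted p = 0.0467)). A C3ar1 UMI was found in 49.9, 49.5 and 37.7% of microglia-like cells and, at 1000 UMIs per cell, in 21, 20.5 and 16.1%, against 1.14, 0.820 and 0% of neutrophil-like cells. C5ar1 was higher by 0.33 (SE 0.11, adjusted p = 0.0826). It passed within homeostatic cells (0.45 (SE 0.10, adjusted p = 0.0136)), where 6.96% of 11658 genes did, and without cells over 10000 UMIs (0.33 (SE 0.10, adjusted p = 0.0412)), where 9.06% did. Against WT 2 alone the ratio was 0.22 and against WT 1 alone 0.44, so its size rests on which WT library is used. C5ar2 was higher by 0.23 (SE 0.09, adjusted p = 0.178).

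Cfp stood at -1.85 (SE 0.72, adjusted p = 0.16) on the log2 scale, deficient minus WT, from 24, 62 and 5 UMIs. Without the cells over 10000 UMIs, among them the 2 WT 2 cells described above, it was -1.0, and as ratios of CPM plus 1 it came to -0.60 against WT 1 alone and -1.47 against WT 2 alone. C3 did not pass the filter on low counts in microglia-like cells. Over all retained cells, where 6.90% of 11974 genes passed, C3 fell with a log2 difference of -2.83 (SE 0.47, adjusted p = 0.0137) and Cfp with -2.12 (SE 0.35, adjusted p = 0.0131). Neutrophil-like cells were 6.34%, 2.87% and 0.798% of those cells and held most C3 UMIs of WT. Their part in the fall was not tested. Within classes, C3 in monocyte-like cells stood at 125 CPM in the deficient library against 194 and 125 CPM in WT 1 and WT 2. In neutrophil-like cells it stood at 40.5 CPM (interval 4.91 to 146, from 2 UMIs) against 144 and 205 CPM, and that interval overlapped the one of WT 1 but not that of WT 2 (173 to 242 CPM).

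**Figure D5:**
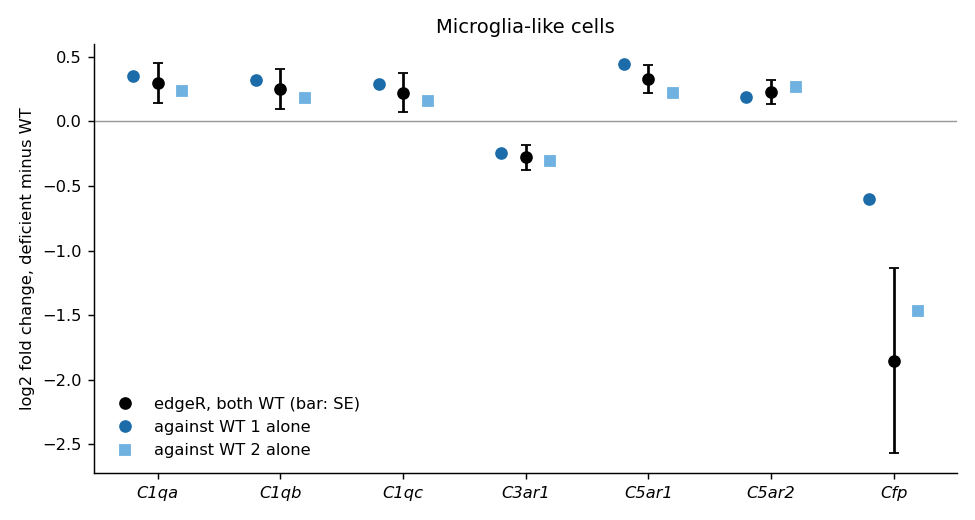
Log2 fold change, deficient minus WT, of the 7 members tested in microglia-like cells. Black points are edgeR values from both WT libraries with SE bars, blue circles and light squares are log2 ratios of CPM plus 1 against WT 1 alone and WT 2 alone. Every member except C3ar1 and Cfp lies above 0, and Cfp has the widest bar.

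Whether the classes and states differed between deficient and WT was tested as an interaction, a fit added after the data were seen. In neutrophil-like against microglia-like cells, the C1q chains differed: the log2 difference was more negative in the deficient library by -2.48 for C1qa (SE 0.57, adjusted p = 0.0186), -2.85 for C1qb (adjusted p = 0.0201) and -3.75 for C1qc (adjusted p = 0.0139), where 1.96% of 6593 genes passed. The deficient value rests on 14 C1q UMIs in 18 cells, beside 19 microglial marker UMIs, and the ratio of the 2 was given above. Only TMM scaling was used for the interaction. C1qa in neutrophil-like cells stood at 366, 377 and 142 CPM in WT 1, WT 2 and the deficient library. On the TMM scale of the class fit it stood at 781, 848 and 179, so this scaling raised the WT values more. The part of scaling in the size was not tested. No other member passed in any class or state, and the rise of C3ar1 and C5ar1 in states did not differ past the threshold between deficient and WT (smallest adjusted p = 0.696).

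Other complement genes were taken from a list of 55, of which 27 were listed in any table and 20 in all 3. Between deficient and WT microglia-like cells, 1 of 20 tested passed: Cmklr1, the chemerin receptor, fell by a log2 difference of -0.69 (adjusted p = 0.0025), from 153 and 121 CPM in WT to 84.2 CPM. Over all genes tested in that comparison, 8.18% passed. Between border macrophage-like and microglia-like cells 23.1% of all genes passed. Border macrophage-like cells were higher in 2 of 11 tested, C4b, a component of the classical pathway (79.1, 44.8 and 65.6 CPM, log2 difference 6.36), and Cd93, a receptor once described as binding C1q (112, 64.0 and 87.5 CPM, 7.19). They were lower in 3: Itgam (-1.74), which encodes CD11b, the alpha chain of complement receptor 3 and a gene of the sort, Cr1l (-1.63), a membrane regulator, and Lrp1 (-1.54), an endocytic receptor.

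Of all genes tested, 53.8% passed between monocyte-like and microglia-like cells and 64.1% between neutrophil-like and microglia-like cells. Monocyte-like cells were higher in 3 of 11 (Cd93 4.91, Cd300lf 2.70 and Itgb2 0.72, the partner chain of CD11b) and lower in 4, among them Cmklr1 (-3.91), Calr (-0.81) and Itgam (-0.80). Neutrophil-like cells were higher in 4 (Cd300lf 5.95, Cd93 4.51, Itgb2 1.64 and Itgam 0.82) and lower in 6, among them Cmklr1 (-4.65), Lrp1 (-3.22), C1qbp (-2.99), Calr (-1.95) and Cr1l (-0.61). Fcnb, a ficolin of the lectin pathway, stood at 297 and 379 CPM in neutrophil-like cells of WT 1 and WT 2 and was not tested, and neither were Cd55, Colec12 and Fcna, which also reached 20 CPM in a class. Among states, of 9 tested, Itgax (5.02), which is a marker of that list, and Calr (0.40) were higher and Itgam (-0.53) lower in Lpl-Cst7 cells, and Lrp1 was lower in Egr2-Ccl2 (-0.71) and immediate early cells (-0.42). The other genes of the list did not pass in the states. Of all genes tested, 14.4% passed in Lpl-Cst7, 10.8% in Egr2-Ccl2 and 31.0% in immediate early cells.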

How the data were processed

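The authors deposited 1 table of raw UMI counts per library, genes by cell barcodes, with no normalisation, and the counts were used as deposited. The submitters' processing notes list Cell Ranger 3.0, Seurat 2.2 and the mouse build mm10. How the authors filtered cells, and whether counting used strand, is not given in the sources used here. Barcodes under 500 UMIs or 200 genes, or above 10% mitochondrial UMIs, were dropped (418 in all), which left 4340, 4667 and 2257 cells. A cell was placed by the share of its UMIs in marker lists: at least 1% microglial, or, below that, 0.05% border macrophage (2 or more markers), 0.3% monocyte or 2% neutrophil (3 or more markers each). Cells with border macrophage and other blood cell markers, and cells over the microglial threshold that also reached 2% neutrophil, 0.25% border macrophage or the monocyte threshold, were set aside as mixed. State thresholds (3 or more markers) were 0.1% for interferon, 0.25% for Lpl-Cst7 and Egr2-Ccl2, 0.5% for heat shock and 2% for immediate early genes, and the 14 proliferating cells entered no state comparison. The classes and states are ranges of a score, and 24, 21 and 12 cells lay near the microglial threshold (0.8 to 1.25 times it). The members, the marker and gene lists and the thresholds were chosen with earlier results of these data known.

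UMIs were summed per library and class or state (10 or more cells) and tested with edgeR 4.0.16 in R 4.3.3 (quasi-likelihood, TMM, filterByExpr, Benjamini-Hochberg at 0.05 over all genes), with library as a term except between deficient and WT, among the 11979 genes in all 3 tables. Alternatives covered scaling, filters, DESeq2 1.42.0, limma 3.58.1, Leiden clusters (scanpy 1.11.5), depth, thresholds and each library left out. The edgeR step was tested on simulated data. The SE given with edgeR values is the size of the log2 difference divided by the square root of the test's F statistic. It is an approximation and need not match the p-value exactly. Ratios against 1 WT library are differences of log2(CPM + 1). Intervals are exact Poisson ones for CPM, at 95%, and cover counting error only. UMI totals per library were 6616662 to 17293844. All 8 members were described, other complement genes were named at a mean of 20 CPM in a class (1 that the rule names is not reported here), and for likeness the 3 closest genes per member. The single cells with most Cfp were named after their values were seen. No doublets were removed, and an alternative left out the 0, 1 and 28 cells that Scrublet marked.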

Additional observations from a re-analysis of the deposited data

Results flagged for a closer look

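The drop of C1q from microglia-like to neutrophil-like cells differed between deficient and WT by a test of that difference: the log2 differences, deficient minus WT, were -2.48 for C1qa, -2.85 for C1qb and -3.75 for C1qc. They rest on TMM scaling alone and on 7, 5 and 2 UMIs in the 18 neutrophil-like cells of the deficient library. Microglial marker UMIs in these cells were low as well, with a median of 0.0264% of a cell's UMIs against 0.0905% in WT 1 and 0.0957% in WT 2, and their part in the difference was not tested.

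The 6 cells of the deficient library that no marker list placed carried 5 members at levels above the unplaced cells of WT, in data that no comparison used, and the difference was not tested. C1qa stood there at 7603 CPM against 1599 and 1124 CPM in the 14 and 18 such cells of WT 1 and WT 2, C1qb at 7147 CPM against 2220.1 and 1079.9 CPM and C1qc at 4866 CPM against 1261 and 824 CPM. C3ar1 stood at 1521 CPM against 282 and 66.8 CPM, and C5ar1 at 1292 CPM against 169 and 189 CPM. Of the 17 C5ar1 UMIs, 12 came from 1 cell of 4454 UMIs. The cell with most C1qa UMIs (38 of 100) had a microglial marker share of 0.593% and 263 Cd74 UMIs, and the share of the other 5 cells lay between 0 and 0.997%, under the 1% needed for the microglia-like class. The cells at 0.997% and 0.898% gave 22 and 36 C1qa UMIs and 7 and 11 of the 20 C3ar1 UMIs. The median share was 0.745% in the deficient library against 0.222% and 0.189% in the unplaced cells of WT 1 and WT 2, so the groups compared were unlike.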

How the results depend on the processing

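Of 801 alternative values for 61 results of single members, 712 kept their direction and side of the threshold, 25 passed where the main value did not, 29 no longer passed, and 35 reversed, none of them a called value. In the comparison of deficient with WT microglia-like cells the count of members called was 0 and became 2 over all retained cells, 1 in homeostatic cells only, 2 with cells thinned to 1000 UMIs and 1 without the 120 cells over 10000 UMIs, an alternative chosen after seeing the data. Across states the 12 calls became 6 without a library term and 8 to 13 with each library left out. Reversed values of C1qa in heat shock cells were -0.058 with library totals only, -0.14 and -0.032 with marker thresholds doubled and halved, -0.036 with no count filter, -0.036 thinned, -0.016 without the deficient library, -0.0039 without WT 2 and -0.0095 without cells over 10000 UMIs. Those of C1qb there were -0.041, -0.19, -0.021, -0.018, -0.0065 and -0.0072 under the first 6 of these, and those of C1qc -0.020, -0.17 and -0.017 under the first 3. With thresholds doubled and halved C3ar1 came to 0.54 and 0.12 (thinned 0.18), C5ar2 doubled to -0.21 and C5ar1 halved to 0.018. In Egr2-Ccl2 cells C5ar2 came to -0.087 with library totals, -0.015 doubled, -0.0041 without a library term and -0.79 without WT 1. In Lpl-Cst7 cells C1qb came to -0.079 with library totals, -0.035 with no count filter, -0.069 thinned and -0.028 without the deficient library. In immediate early cells C5ar2 came to 0.0011 with RLE, 0.012 with no count filter, 0.057 without WT 2 and 0.019 without cells over 10000 UMIs, and in neutrophil-like cells under the last to 0.23. The other end of each range with 1 library left out was 0.22 for C5ar2 in Egr2-Ccl2, 0.050 for C1qb in Lpl-Cst7, 0.0097 and 0.035 for C1qa and C1qb in heat shock and -0.16 for C5ar2 in immediate early cells. The cause was not tested.

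Over all genes, DESeq2 called 482 against 972 in the comparison of deficient with WT. Library totals in place of TMM moved the calls, higher and lower, from 740 and 572 to 667 and 1022 in border macrophage-like, from 1770 and 1871 to 738 and 4126 in neutrophil-like, from 345 and 44 to 306 and 103 in interferon, from 493 and 280 to 395 and 468 in Lpl-Cst7, from 398 and 181 to 338 and 385 in Egr2-Ccl2 and from 798 and 869 to 560 and 2164 in immediate early cells. RLE gave 1325 and 2048 against 1532 and 1524 in monocyte-like, 1344 and 2639 in neutrophil-like and 910 and 660 in immediate early cells. Thinned cells gave 458 calls against 1312 in border macrophage-like, 719 against 3056 in monocyte-like and 828 against 3641 in neutrophil-like cells, and in the states 95 against 389 (interferon), 220 against 773 (Lpl-Cst7), 221 against 579 (Egr2-Ccl2), 418 against 1667 (immediate early) and 29 against 46 (heat shock). Without a library term the calls were 217, 458, 714 and 3 in interferon, Lpl-Cst7, immediate early and heat shock cells. Doubled thresholds gave 227 in interferon and 276 in Egr2-Ccl2 cells, halved ones 974 in Egr2-Ccl2 and 10 in heat shock cells, and no count filter 5805 in neutrophil-like and 74 in heat shock cells. Without WT 1 or WT 2 calls fell to 725 and 661 in border macrophage-like, 1702 and 1795 in monocyte-like, 1945 and 2183 in neutrophil-like, 209 and 156 in interferon, 384 and 274 in Lpl-Cst7, 345 and 343 in Egr2-Ccl2 and 844 and 644 in immediate early cells, and without WT 2 to 12 in heat shock cells.

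No paired analysis was possible because the deficient group has 1 library and the WT libraries are not matched to it. Leaving out a WT library there leaves a value with no test. Depth limits C3 and Cfp in microglia-like cells, C3ar1 and C5ar2 in monocyte-like cells and all values of the 12 border macrophage-like, 20 monocyte-like and 18 neutrophil-like cells of the deficient library, whose class was set by thresholds chosen with the data in hand.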
